A study of Mus musculus with 8 samples.

Results

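The nuclear-encoded subunits of the mitochondrial respiratory chain were followed in bone marrow-derived macrophages (BMDM), macrophages grown in culture from bone marrow, all of them exposed to interleukin 4 (IL-4). The members were taken by name: gene symbols that begin with Nduf, Uqcr or Atp5, those that begin with Cox4, Cox5, Cox6, Cox7 or Cox8, and Sdha, Sdhb, Sdhc and Sdhd. They came to 92 of the 24421 gene symbols counted, of which 85 had enough reads to be tested. The name rule also brings in genes that are not subunits: the 7 Ndufaf genes, which encode complex I assembly factors, Cox7a2l, which encodes a factor that joins complexes into supercomplexes, and Atp5s and Atp5sl, which are not parts of the ATP synthase core. The rule leaves out nuclear-encoded subunits with other names, such as Cyc1 (cytochrome c1) of complex III. The 13 subunits encoded by mitochondrial DNA are not analysed here.

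RNA sequencing covered 8 libraries, all treated with IL-4 for 24 h. The 4 CKO libraries (numbers 2, 6, 7 and 8) are labelled OPA1f/f; Lyz2-Cre and the 4 FLOX libraries (numbers 3, 4, 6 and 7) OPA1f/f. Both groups thus carry the floxed Opa1 allele, the groups differ by the Cre transgene as well as by the deletion, and no unstimulated or Cre-only cells were among these samples. Cre is driven by Lyz2, a gene of myeloid cells, so deletion depends on its activity in each cell. The labels give neither the age of the mice nor whether each library came from a separate animal or culture, so p-values measure only the spread between these libraries. Values per library are given throughout in the order CKO 2, 6, 7 and 8, then FLOX 3, 4, 6 and 7, as CPM, counts scaled to library size.

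In the inner mitochondrial membrane, complexes I and II pass electrons from NADH and succinate to coenzyme Q, complex III passes them on to cytochrome c, and complex IV to oxygen. Complexes I, III and IV pump protons, and complex V, the ATP synthase, uses the proton gradient to make ATP. OPA1 is a dynamin-like GTPase of the same membrane that shapes the cristae in which these complexes lie, and in macrophages IL-4 is known to go with a reliance on oxidative metabolism.

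Pairs of reads assigned to genes numbered 11764855 (CKO 2) to 18939948 (FLOX 6) per library. Lyz2, the locus into which Cre is inserted in this line, had 1808 to 2385 CPM in CKO and 6902 to 8289 CPM in FLOX libraries, while reads over the whole Opa1 gene stood at 94.6 to 105 CPM in CKO and 104 to 130.3 CPM in FLOX (log2 fold change −0.19, SE 0.07, adjusted p = 0.0544 by edgeR). It was called lower without FLOX 3, without FLOX 6 and without both, with upper-quartile scaling and with the length and GC offsets (log2 fold changes −0.29 to −0.18). A count over a whole gene includes exons outside the deleted part and does not measure the deletion. The macrophage markers summed to 8816 to 9815 CPM in CKO and 14936 to 15934 CPM in FLOX, with 4 of 9 lower (21.6% of all tested genes), 1 higher (23.8%) and none at 0. Lyz2 is one of them, and the other 8 summed to 6895 to 7430 CPM in CKO and 7644 to 8060.0 CPM in FLOX. One text in the labels speaks of islets, and 7 of 8 islet markers were at 0 in all libraries. Of 8 neutrophil markers 4 were tested, and of these 3 were higher and 0 lower (23.8% and 21.6% of all tested genes). Elane and Retnlg were at 0, and the 8 markers summed to 4.56 to 10.1 CPM in CKO and 1.92 to 3.22 CPM in FLOX. The 6 stromal and endothelial markers, of which none was at 0, summed to 12.0 to 14.5 CPM in CKO and 7.57 to 8.996 CPM in FLOX. Only Pecam1 among them had enough reads to be tested, and it was higher. Cd79b, a B cell marker, had 1.76, 1.52, 1.79 and 1.21 CPM in CKO and 0.911, 0.907, 1.08 and 0.426 CPM in FLOX, and was higher (log2 fold change 0.88, adjusted p = 0.0162 by edgeR). The T and NK cell markers and the erythroid markers each summed to at most 0.0756 CPM in any library. The part of these cells in the results below was not tested, and in bulk RNA a change in the share of a cell type cannot be told apart from a change in RNA per cell.

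The FLOX libraries fell into 2 pairs, which must be kept in view for every result. On the second principal component, which held 12.7% of the variance, FLOX 3 and FLOX 6 lay at 19.7 and 11.2, and FLOX 4 and FLOX 7 at −13.8 and −16.1. Among the members, 80 of 85 (94.1%) were higher in both FLOX 3 and FLOX 6 than in either FLOX 4 or FLOX 7, as against 3914 of all 11519 tested genes (34.0%). The labels name no batch that would separate these pairs. Results are therefore given with all 8 libraries and without each pair in turn.

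Most members were slightly lower in CKO, by amounts that mostly did not pass the test. By edgeR's quasi-likelihood test with Benjamini-Hochberg adjustment over all tested genes, called at 0.05, 24 of 85 members (28.2%) were lower in CKO, where 21.6% of all tested genes were lower. Only 2 of 85 (2.35%), Cox6a2 and Ndufaf6, were higher, where 23.8% of all tested genes were higher. In either direction 26 of 85 members were called, against 45.4% of all tested genes. The median log2 fold change (CKO over FLOX) was −0.17 over the members and −0.02 over all tested genes, with 71 members below zero and 14 above. Changes were small: a log2 fold change beyond 0.5 was reached among called members by Uqcrh in the lower direction and by Cox6a2 and Ndufaf6 in the higher direction, against 6.75% and 12.5% of all tested genes. All CKO libraries lay below all FLOX libraries for 20 members and above them for 2, against 20% and 22.7% of all tested genes.

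The number of calls depended on which FLOX libraries entered. Without FLOX 3 and 6, 13 members were lower and 13 higher, and the median log2 fold change was −0.02 (25.8% and 26.2% of all tested genes were called lower and higher). Without FLOX 4 and 7, 66 were lower and 2 higher, with a median of −0.31 (24.2% and 26.1%). Single libraries also moved the lower count by over 1.5 times: it was 15 without CKO 6, 12 without CKO 8 and 41 without FLOX 7, where 15.4%, 15.8% and 21.4% of all tested genes were lower. It was 25 without CKO 2 (19.5%), 17 without CKO 7 (15.8%), 21 without FLOX 3 (21.5%), 35 without FLOX 4 (20%) and 20 without FLOX 6 (20.4%). The higher count was 2 or 3 in these fits, where 24.8%, 21.5%, 22.2%, 21.9%, 23.4%, 21.9%, 22.9% and 23.1% of all tested genes were higher, in the order of the libraries. Other ways of scaling, filtering and testing gave 24 or 25 lower and 2 or 3 higher members. All tested genes were then called lower and higher at 21.8% and 23.7% with RLE scaling, 20.9% and 23.6% with upper-quartile scaling and 22.2% and 24.1% with a filter at 1 CPM. With no filter these shares were 15% and 16.7%, with DESeq2 18.6% and 20.8%, with limma-voom 21.4% and 23.9%, with a GC offset 23.3% and 24.3%, and without the 20 most abundant genes 20% and 24.9%. With the replicate number as a block they were 13.2% and 17.2%, beside 11 lower and 2 higher members. A set of 11 members was called lower in every one of the 8 fits that leave out a library and in both fits that leave out a FLOX pair: Ndufa1, Ndufb10, Sdha, Sdhd, Uqcrh, Cox4i1, Cox6c, Cox7a2l, Ndufa4, Atp5j and Atp5k. Cox6a2 and Ndufaf6 were called higher in all of these fits. The fits share most of their libraries, and the share of all tested genes called in every one of them was not counted.

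**Figure D1:**
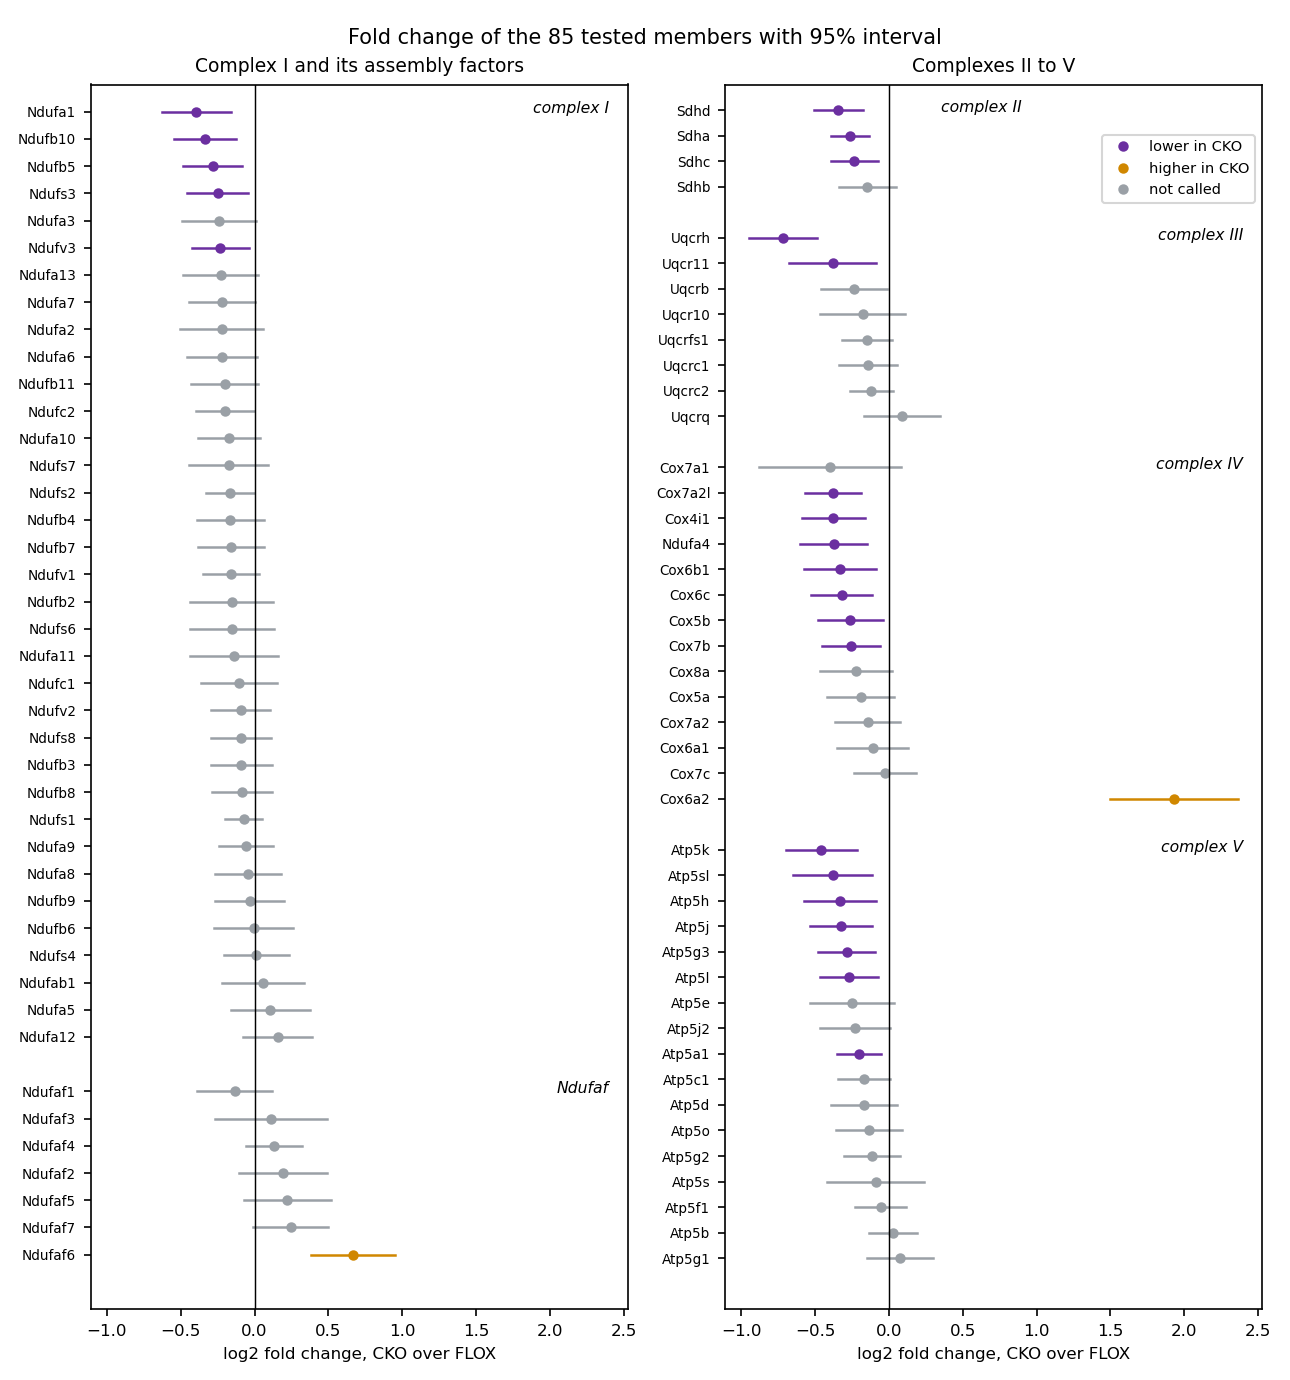
Log2 fold change of each tested member (CKO over FLOX, points) with its 95% interval (lines), sorted within each complex, from the edgeR fit of 4 CKO and 4 FLOX libraries. Most points lie just left of zero, Uqcrh is the lowest at −0.72, and Cox6a2 (1.93) and Ndufaf6 (0.67) stand apart on the right.

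Genes that regulate the chain were measured in the same libraries. Of 16 tested regulators 3 were lower and 6 higher, where 21.6% and 23.8% of all tested genes were. Myc, a broad activator of growth and mitochondrial genes, was higher (log2 fold change 1.62), as were Gabpb1 (0.42), a subunit of the ETS-family factor GABP, and the coactivator Pprc1 (0.36), while the coactivator Ppargc1b was lower (−0.90). Ppargc1b had 8.89 to 10.2 CPM in CKO and 13.0 to 24.3 CPM in FLOX. For Nrf1 (0.06), Gabpa (−0.10) and Yy1 (−0.02), which bind promoters of chain genes, the difference was not called, with adjusted p of 0.455, 0.375 and 0.789 by edgeR. The 250 bases before the RefSeq start (GRCm38.p6) were searched on both strands for their motifs in the 73 members that have an entry.

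The NRF1-type motif (GCGCA, any base, then GCGC) was found in 14 of 73 members (19.2%), against 9.81% of 8895 tested genes with an entry. The ETS-type motif CCGGAAG was found in 13 of 73 (17.8%), against 16.7% of tested genes, and the YY1-type motif AAGATGGCG in 1 of 73 (1.37%), against 1.55%. Among the 19 members called lower that have an entry, 8 (42.1%) held the ETS-type motif, 4 (21.1%) the NRF1-type motif and 1 (5.26%) the YY1-type motif. The shares of tested genes were 16.7%, 9.81% and 1.55%. The lower members were called in these same data and the motifs chosen with results known, so the difference was not tested. These motifs do not overlap each other in the sequences shown. The sequences are shown for Uqcrh and Sdhd, as far as they lie outside annotated exons, and as short windows around NRF1-type matches in Sdhd, Sdha and Atp5k, as examples from the members that were lower in every fit without a library or a FLOX pair. Atp5j, another of these, has an ETS-type match beginning 61 and a YY1-type match beginning 88 bases before its start, both touching an exon, and is not shown. The others of these, Ndufa1, Ndufb10, Cox4i1, Cox6c, Cox7a2l and Ndufa4, had no match or no entry, so the sequences shown do not stand for all of them. Capitals mark a motif on either strand, and all are on the minus strand of GRCm38.p6, written 5′ to 3′ towards the gene.
Uqcrh, chr4:116075072-116075268: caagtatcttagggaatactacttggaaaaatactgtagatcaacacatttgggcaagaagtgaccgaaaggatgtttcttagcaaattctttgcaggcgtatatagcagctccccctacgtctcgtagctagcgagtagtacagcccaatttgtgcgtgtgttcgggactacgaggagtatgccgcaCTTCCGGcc
Sdhd, chr9:50603850-50603909: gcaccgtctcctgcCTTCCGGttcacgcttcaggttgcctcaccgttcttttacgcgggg
Sdhd, chr9:50603909-50603938: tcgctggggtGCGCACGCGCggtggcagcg
Sdha, chr13:74350319-74350348: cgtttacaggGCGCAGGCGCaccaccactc
Sdha, chr13:74350276-74350305: ggggcgtgttGCGCAGGCGCagaatcttcc
Sdha, chr13:74350241-74350260: gcgactcggtGCGCAAGCGC
Atp5k, chr5:108434430-108434459: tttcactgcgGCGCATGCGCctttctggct

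The ETS-type match of Uqcrh begins 10 bases before the start and that of Sdhd 46 bases before it, and Sdha carries NRF1-type matches beginning 98, 55 and 10 bases before its start. Within these 250 bases lies an exon of Lrrc41 for Uqcrh, of Timm8b for Sdhd and of Ccdc127 for Sdha. The NRF1-type matches of Atp5k and Sdhd and those at 98 and 10 bases in Sdha touch an annotated exon. A match is a description of the letters and not a binding site.

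The same split appeared in other gene groups, so the members' position in each library was set beside theirs. The median deviation of the members from their mean over the 8 libraries (log2) was −0.01, −0.10, −0.08 and −0.16 in CKO and 0.27, −0.04, 0.17 and −0.09 in FLOX. The 78 tested cytosolic ribosomal protein genes ran in parallel, at 0.02, −0.08, −0.06 and −0.15 in CKO and 0.29, −0.04, 0.14 and −0.14 in FLOX. The 14 enzymes of the tricarboxylic acid cycle, which share the mitochondrion with the chain, stayed between −0.01 and 0.03 in CKO and between −0.06 and 0.04 in FLOX. The mitochondrial ribosomal proteins lay between −0.01 and 0.06 in CKO and at 0.13, −0.13, 0.08 and −0.20 in FLOX. Transcript length moved with the pattern too: 833 tested genes with a transcript under 1000 bases had 0.22, −0.04, 0.12 and −0.09 in the FLOX libraries, whereas 3399 genes of 4000 bases or more had −0.14, 0.07, −0.07 and 0.11. With a length offset in the fit, 33 members were lower and 8 higher, where 26.5% and 26.6% of all tested genes were called. By the test of single genes, 10 of the 78 ribosomal protein genes were lower and 0 higher, 3 of the 14 cycle enzymes were lower and 3 higher, and of 77 mitochondrial ribosomal protein genes 7 were lower and 11 higher. Of all tested genes 21.6% were lower and 23.8% higher.

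**Figure D2:**
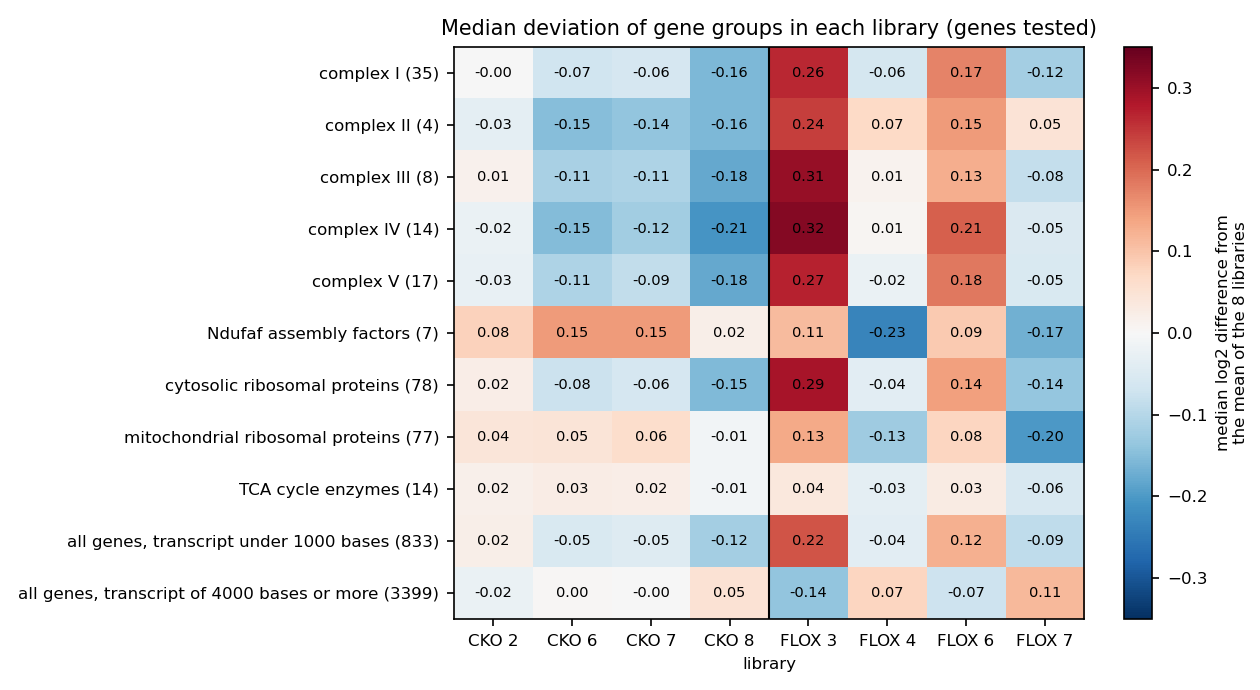
Median log2 deviation of the tested genes of each group from their mean over the 8 libraries, with CKO libraries left of the line and FLOX libraries right of it; numbers of genes are in brackets. Complexes I to V and the ribosomal proteins are highest in FLOX 3 and FLOX 6, where the longest transcripts are lowest.

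The members' libraries also differed in spread. The median coefficient of variation over the members was 6.24% among CKO and 13.0% among FLOX libraries. For 6236 tested genes of like level it was 5.39% in CKO and 8.26% in FLOX.

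Summed over the members, the chain's transcripts came to 8785, 8239.9, 8387 and 7919.7 CPM in CKO and 10626, 8794, 9949 and 8479 CPM in FLOX, so that the ranges overlapped. Mean and SD over 4 libraries were 8333 ± 359 CPM in CKO, set against 9462 ± 1001 CPM in FLOX, or 88.1% of FLOX, and 96.4% when FLOX 3 and 6 were left out. Complex II was the one complex whose sums did not overlap, at 763, 709, 717 and 706 CPM in CKO and 912, 838, 869 and 830.2 CPM in FLOX (84.0% of FLOX). The sum of complex I was 90.6% of FLOX, of complex IV 82.8% and of complex V 90.5%, all with overlapping ranges, as had complex III (760.4 ± 43.8 CPM in CKO and 895 ± 107 CPM in FLOX). Without FLOX 3 and 6, the sum of complex I was 100.8% of FLOX. The 7 Ndufaf assembly factors summed to 84.3 to 93.8 CPM in CKO and 73.6 to 91.9 CPM in FLOX (110.5%).

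**Figure D3:**
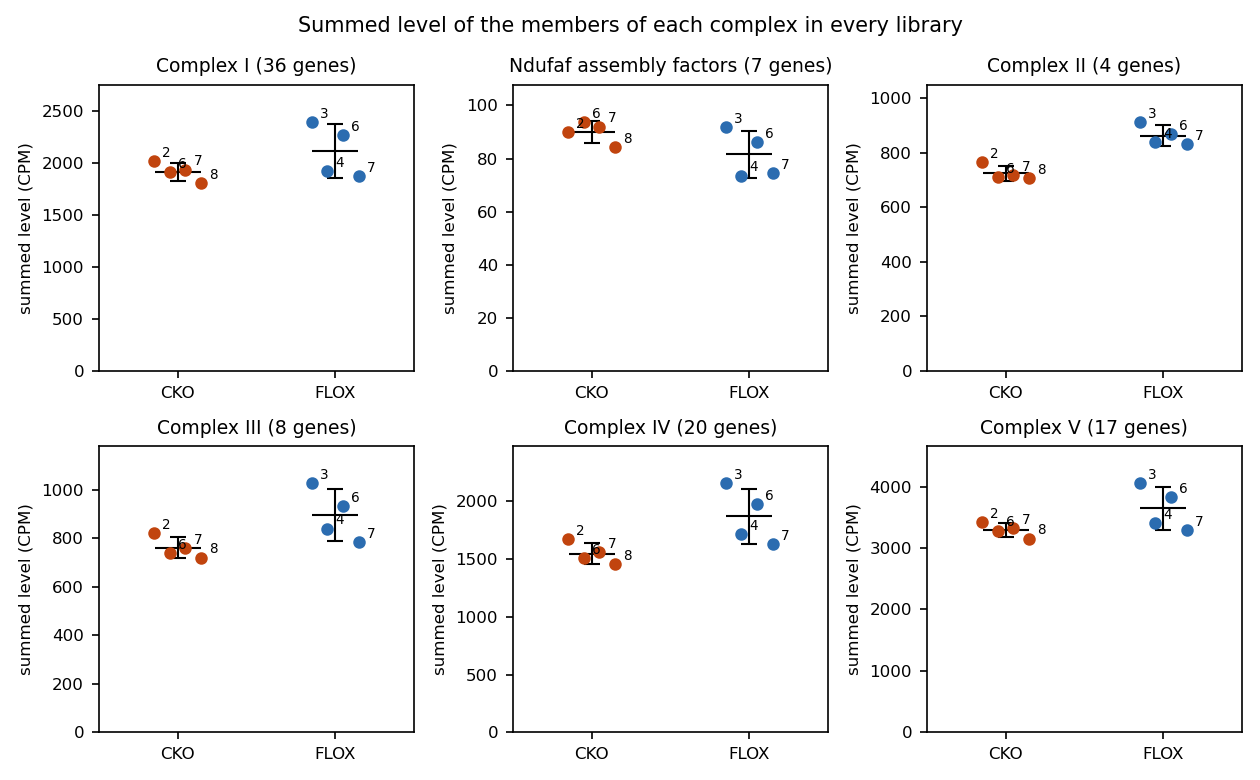
Summed CPM of the members of each complex (y axis, from 0) in the 4 CKO and 4 FLOX libraries; points are libraries labelled by number, bars the mean and whiskers the SD. CKO libraries lie below every FLOX library for complex II (706 to 763 against 830.2 to 912 CPM), while FLOX 7 reaches into the CKO range for complexes I, III, IV and V, FLOX 4 for complexes I and V, and FLOX 3 and FLOX 6 for the assembly factors.

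Complex I, the NADH dehydrogenase, is the largest complex, with an arm in the matrix that holds the electron carriers and an arm in the membrane that pumps protons. Of its 35 tested members 5 were lower (14.3%) and 0 higher, where 21.6% and 23.8% of all tested genes were called; the 35 members had a median of −0.16 (log2 fold change). The lower members were 2 of 16 in the matrix arm and 3 of 18 in the membrane arm, a difference that was not tested, and 1 of the 7 core subunits, Ndufs3, was lower (−0.25). The count was 3 in the fits without CKO 6, CKO 7, FLOX 3 or FLOX 6 (15.4%, 15.8%, 21.5% and 20.4% of all tested genes), and 2 without CKO 8 (15.8%). It was 13 without FLOX 4 (20%) and 14 without FLOX 7 (21.4%). By DESeq2 it was also 5.

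Ndufa1, a small accessory subunit of the membrane arm, had 39.7, 33.7, 35.4 and 32.3 CPM in CKO and 53.7, 42.9, 48.1 and 40.4 CPM in FLOX. Every CKO library lay below every FLOX library, though CKO 2 and FLOX 7 were close (log2 fold change −0.40, SE 0.10, adjusted p = 0.00491 by edgeR). Ndufb10, another accessory subunit of that arm, had 74.8, 65.7, 67.3 and 62.0 CPM in CKO and 92.4, 81.1, 93.1 and 73.5 CPM in FLOX (−0.34, SE 0.09, adjusted p = 0.00664), with CKO 2 above FLOX 7. Ndufb5, also of the membrane arm, had 59.0, 56.4, 56.5 and 52.9 CPM in CKO and 75.8, 63.0, 75.0 and 59.8 CPM in FLOX (−0.28, SE 0.08, adjusted p = 0.0137). Its ranges did not overlap, but its call was lost without CKO 8 and without FLOX 3 and 6. Ndufv3 of the flavoprotein part was also lower (−0.23); the 30 members of complex I that were not called lay between −0.24 (Ndufa3) and 0.16 (Ndufa12). Ndufs1, the largest core subunit, showed how small a separation can be: 87.6, 89.7, 88.0 and 87.4 CPM in CKO and 93.4, 89.8, 94.1 and 93.6 CPM in FLOX did not overlap, and the difference was not called (−0.07, adjusted p = 0.272).

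Of the 7 assembly factors of complex I, 1 was higher and 0 lower, where 23.8% and 21.6% of all tested genes were called. Ndufaf6, which is needed for early assembly of the complex, had 6.20, 5.86, 5.98 and 5.12 CPM in CKO and 3.57, 3.55, 3.89 and 3.48 CPM in FLOX. All CKO libraries lay above all FLOX libraries, and both FLOX pairs stood at the same level (log2 fold change 0.67, SE 0.12, adjusted p = 0.00052 by edgeR). Of the other 6 Ndufaf genes 0 were called in either direction; 5 had a log2 fold change above zero (0.11 to 0.24) and Ndufaf1 had −0.14. Without FLOX 3 or without FLOX 6, 2 of the 7 were higher (23.4% and 22.9% of all tested genes). Without both 4 were (Ndufaf2, Ndufaf5, Ndufaf6 and Ndufaf7), where 26.2% of all tested genes were higher. Of 41 tested assembly factors with other names, for all the complexes, 7 were lower and 2 higher (21.6% and 23.8% of all tested genes). Cox18, an insertase for complex IV, was higher (0.79), as was Cox15 of heme A synthesis (0.20), while Pet100 (−0.53) and Higd2a (−0.38), both of complex IV assembly, were lower.

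Complex II, succinate dehydrogenase, is also an enzyme of the tricarboxylic acid cycle and has no subunit encoded by mitochondrial DNA. Of its 4 subunits 3 were lower, against 21.6% of all tested genes, and the changes in Sdha and Sdhd were called in every fit without a library or a FLOX pair. Sdha, the flavoprotein that oxidises succinate, had 353, 329, 331 and 331 CPM in CKO and 408, 401, 399 and 407 CPM in FLOX (log2 fold change −0.26, SE 0.05, adjusted p = 0.00139 by edgeR). The FLOX libraries were nearly level here, and the difference was close to this without FLOX 3 and 6 (−0.27) and without FLOX 4 and 7 (−0.26). Sdhd, a membrane anchor, had 124, 112, 119.9 and 121 CPM in CKO and 167, 149, 154 and 137 CPM in FLOX (−0.34, SE 0.07, adjusted p = 0.00125), with no overlap. Sdhc, the other anchor, had 160.2, 146, 148 and 141 CPM in CKO and 186, 161, 183 and 169 CPM in FLOX (−0.23, SE 0.06, adjusted p = 0.0109); its call was lost without CKO 8. Sdhb, the iron-sulfur subunit, had 126, 121, 118 and 112 CPM in CKO and 152, 127, 133 and 117 CPM in FLOX, with overlap, and did not pass (−0.15, SE 0.08, adjusted p = 0.146).

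Complex III, the cytochrome bc1 complex, had 2 of 8 members lower (21.6% of all tested genes) and held the member with the lowest fold change. Uqcrh, the hinge protein that sits at the docking site of cytochrome c1, had 105, 96.6, 100.3 and 94.2 CPM in CKO and 193, 152, 168 and 137 CPM in FLOX. The CKO libraries were close together and all below the lowest FLOX library (log2 fold change −0.72, SE 0.09, 95% interval −0.94 to −0.49, adjusted p = 5.67e-05 by edgeR). The value was −0.55 without FLOX 3 and 6 and −0.87 without FLOX 4 and 7. Within complex III, Uqcrh made up 13.0% ± 0.180 of the summed CPM in CKO and 18.1% ± 0.557 in FLOX (SD, n = 4 each), a ratio within each library that does not depend on the scaling between libraries. Its upstream sequence holds the ETS-type match closest to a start among those printed. The gene lies on chromosome 4 at 116066965 to 116075071 on the minus strand (GRCm38).

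Uqcr11, a small accessory subunit of complex III, had 52.5, 43.4, 44.4 and 42.7 CPM in CKO and 69.5, 52.6, 67.9 and 47.5 CPM in FLOX (−0.38, SE 0.12, adjusted p = 0.0209 by edgeR). CKO 2 lay above FLOX 7, and the call was lost in 4 of the 8 fits that leave out a library, those without CKO 6, CKO 7, CKO 8 or FLOX 6. The count of complex III was then 1 in each of these fits (15.4%, 15.8%, 15.8% and 20.4% of all tested genes), and it was 4 without FLOX 7 (21.4%). The 6 other members of complex III were not called: the catalytic Rieske protein Uqcrfs1 had −0.15, the core proteins Uqcrc1 and Uqcrc2 −0.14 and −0.12, and Uqcrq 0.09. Cyc1, cytochrome c1, is a subunit of complex III that the name rule, and so the sum of the complex, leaves out. It had 70.7 to 79.2 CPM in CKO and 60.8 to 81.4 CPM in FLOX (log2 fold change 0.03, adjusted p = 0.776 by edgeR). Its soluble partner Cycs had 101 to 111 CPM in CKO and 82.6 to 106 CPM in FLOX (0.18, adjusted p = 0.0712). Of 16 tested genes for these carriers and coenzyme Q synthesis, 3 were lower and 2 higher (21.6% and 23.8% of all tested genes). Pdss1 (0.97) and Coq2 (0.61), which make and attach the tail of coenzyme Q, were higher, and Adck4 (−0.49) and Coq10a (−0.37) lower.

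**Figure D4:**
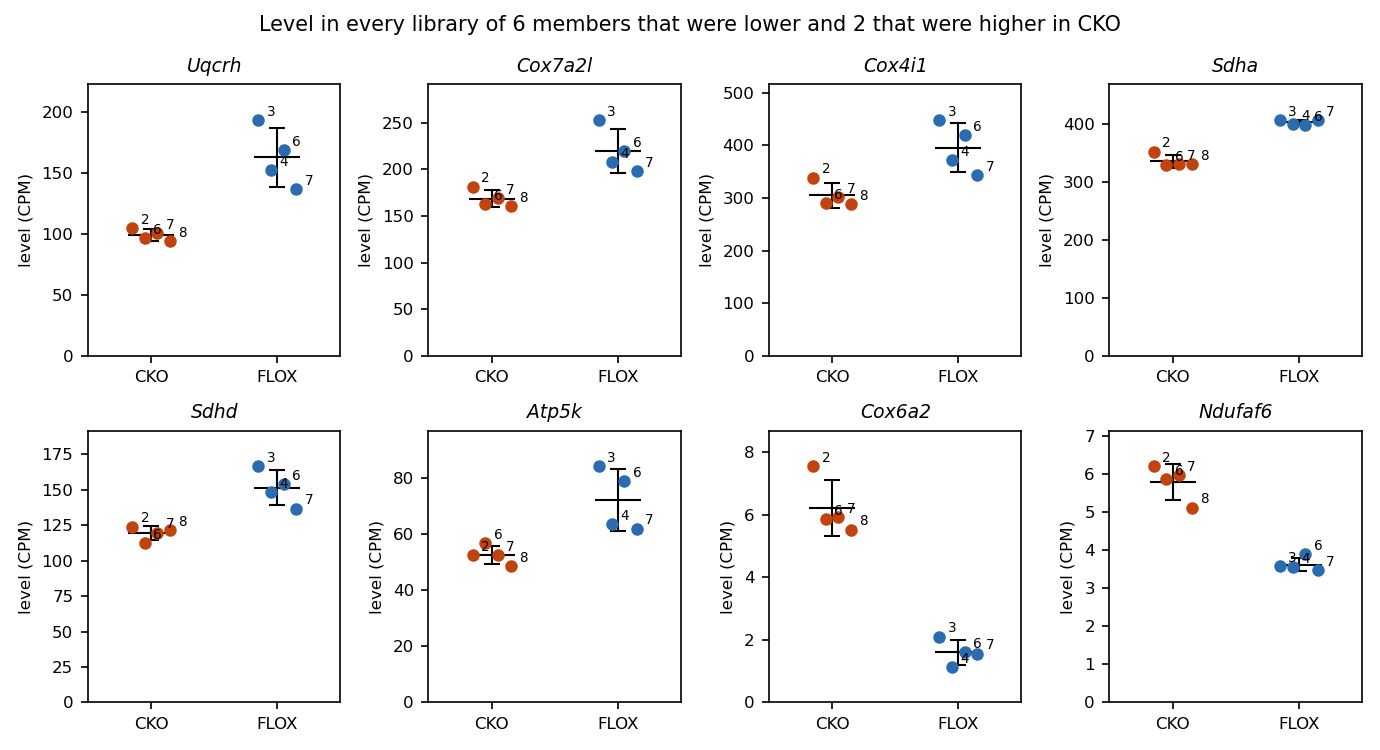
CPM (y axis, from 0) in the 4 CKO and 4 FLOX libraries of 6 members that were lower and 2 that were higher in every fit without a library or a FLOX pair; points are libraries labelled by number, bars the mean and whiskers the SD. In all 8 panels the ranges do not overlap, and Sdha is nearly level among the FLOX libraries (399 to 408 CPM) where Uqcrh is not (137 to 193 CPM).

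Complex IV, cytochrome c oxidase, had 7 of 14 tested members lower and 1 higher, against 21.6% and 23.8% of all tested genes. These members include Cox7a2l, which the name rule brings in. Cox7a2l, which links complexes III and IV in supercomplexes, had 181, 163, 169.5 and 160.1 CPM in CKO and 253, 208, 219 and 198 CPM in FLOX (log2 fold change −0.38, SE 0.08, adjusted p = 0.00159 by edgeR). Cox4i1, the common form of the regulatory subunit 4, had 339, 290.2, 303 and 288 CPM in CKO and 448, 371, 419 and 344 CPM in FLOX (−0.38, SE 0.09, adjusted p = 0.00355). Neither gene's ranges overlapped, although CKO 2 and FLOX 7 differed little for Cox4i1. Ndufa4, named for complex I and known as a subunit of complex IV, had 73.8, 67.3, 75.7 and 67.1 CPM in CKO and 108, 83.3, 97.0 and 79.4 CPM in FLOX (−0.38, SE 0.09, adjusted p = 0.00578). Also lower were Cox6b1 (−0.33), Cox6c (−0.32), Cox5b (−0.26) and Cox7b (−0.26); the count of 7 was 4 without CKO 8 (15.8% of all tested genes) and 4 without FLOX 3 and 6 (25.8%).

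Several subunits of complex IV exist as a common form and a form of other tissues, and levels of such paralogues were compared per kilobase of transcript. Cox6a2, the isoform of heart and skeletal muscle, was the member with the greatest fold change. It had 7.54, 5.86, 5.91 and 5.52 CPM in CKO and 2.10, 1.13, 1.62 and 1.56 CPM in FLOX (log2 fold change 1.93, SE 0.18, adjusted p = 3.96e-06 by edgeR). The common form Cox6a1 had 142, 126, 124 and 114 CPM in CKO and 155, 122, 151 and 117 CPM in FLOX, which overlapped (−0.11, SE 0.10, adjusted p = 0.38). Per kilobase, Cox6a2 held 3.94% ± 0.227 of the 2 forms in CKO and 0.972% ± 0.170 in FLOX (SD, n = 4 each), so Cox6a1 remained the main form in every library. The 6 markers of striated muscle summed to 0.922 to 1.48 CPM in CKO and 0.486 to 2.57 CPM in FLOX, with Myh4, Myh6 and Myh7 at 0 in all libraries. Cox6a2 (chromosome 7, 128205435 to 128206387, minus strand, GRCm38) lies inside the span of Itgad on the other strand, a gene with 0.123 to 0.471 CPM in CKO and 0.0709 to 0.210 CPM in FLOX.

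The other tissue forms were low or not seen. Cox7a1, the muscle form of subunit 7a, had 1.42, 1.78, 1.36 and 2.09 CPM in CKO and 2.73, 1.97, 2.05 and 2.06 CPM in FLOX (−0.40, SE 0.20, adjusted p = 0.118 by edgeR), and Cox7a2 had 83.1, 76.9, 81.1 and 75.8 CPM in CKO and 101, 78.5, 94.7 and 75.6 CPM in FLOX (−0.14, SE 0.09, adjusted p = 0.214). Of the Cox7a transcripts per kilobase, Cox7a2l held 55.7% ± 0.545 in CKO and 59.7% ± 1.39 in FLOX, with no overlap. Cox4i2 had 0, 0.132, 0.0616 and 0.202 CPM in CKO and 0, 0.0756, 0.0540 and 0 CPM in FLOX, and Cox6b2 0.0838, 0.132, 0.123 and 0.0673 CPM in CKO and 0.210, 0.378, 0.432 and 0.0709 CPM in FLOX. Both are too low to test. Cox7b2 and Cox8c had 0 counts in all 8 libraries, which allows up to 3 counts in each. Cox8b had 1 count in all, in FLOX 3, and Ndufa4l2 1 count, in CKO 7.

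Their common partners were abundant. Cox6b1 had 174, 163, 168 and 152 CPM in CKO and 250.2, 183, 216 and 177 CPM in FLOX (−0.33, SE 0.10, adjusted p = 0.0159 by edgeR). Cox7b had 113, 107, 109 and 106 CPM in CKO and 149, 119, 135 and 115 CPM in FLOX (−0.26, SE 0.08, adjusted p = 0.0184). Neither gene's ranges overlapped, but the call of Cox6b1 was lost without CKO 8, that of Cox7b without CKO 6, CKO 7 or CKO 8, and both without FLOX 3 and 6. Cox8a had 119, 103, 99.6 and 94.5 CPM in CKO and 138, 105, 135 and 108 CPM in FLOX, with overlap (−0.22, SE 0.10, adjusted p = 0.0858).

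**Figure D5:**
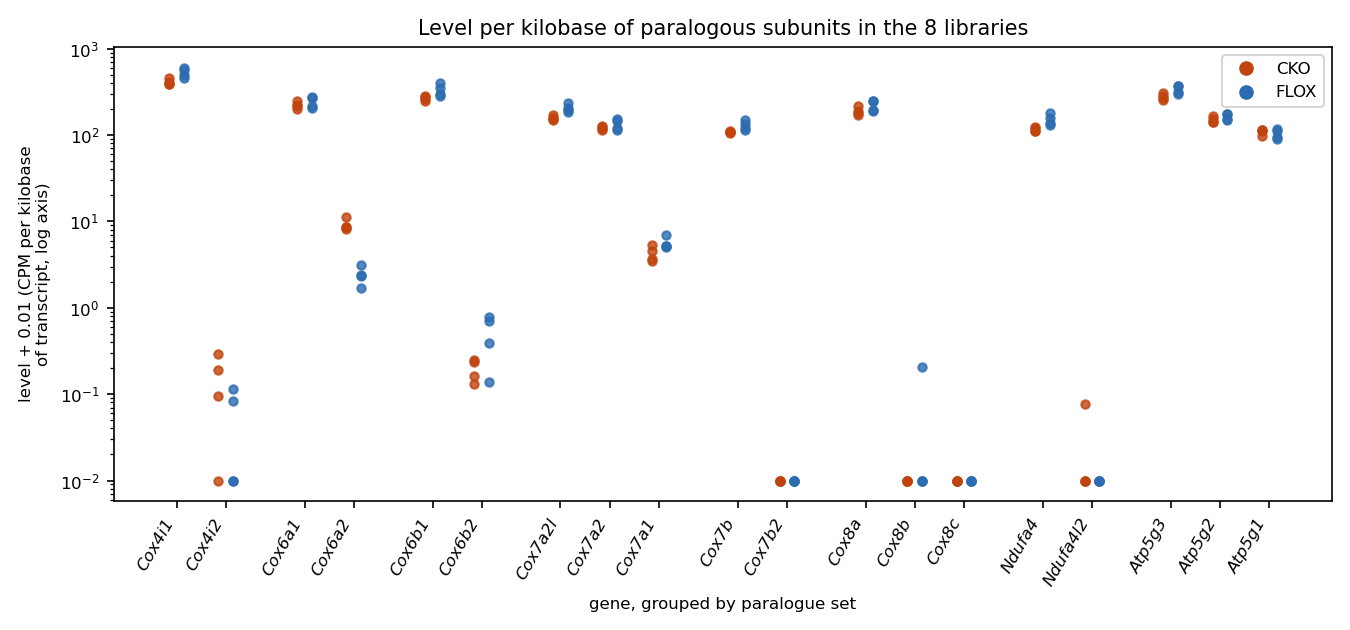
CPM per kilobase of transcript, with 0.01 added, on a log axis for sets of paralogous subunits in the CKO (left points) and FLOX (right points) libraries; each point is a library. Cox6a2 is the form of another tissue that is higher in all CKO than in all FLOX libraries, at 9.13 against 2.36 CPM per kilobase on average, and Cox7b2 and Cox8c are at 0 throughout.

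Complex V, the ATP synthase, had 7 of 17 tested members lower and 0 higher, against 21.6% and 23.8% of all tested genes; the 17 members had a median of −0.20 (log2 fold change). Atp5k, subunit e of the membrane part, had 52.5, 56.9, 52.5 and 48.8 CPM in CKO and 84.3, 63.6, 79.1 and 62.1 CPM in FLOX (−0.46, SE 0.10, adjusted p = 0.00235 by edgeR). Atp5j, coupling factor 6 of the peripheral stalk, had 84.5, 85.6, 86.6 and 78.3 CPM in CKO and 123, 98.0, 108 and 90.7 CPM in FLOX (−0.32, SE 0.09, adjusted p = 0.00849). In both genes all CKO libraries lay below all FLOX libraries. Also lower were Atp5h (−0.33), Atp5l (−0.27) and the catalytic head's alpha subunit Atp5a1 (−0.20). Atp5sl, which the name rule brings in and which is not part of the synthase core, was lower too (−0.38). The beta subunit Atp5b, which per kilobase was the highest member in CKO and came after Cox4i1 in FLOX, averaged 869 ± 21.1 CPM in CKO, beside 853 ± 69.8 CPM in FLOX (SD, n = 4 each), and had a log2 fold change of 0.03 (95% interval −0.14 to 0.19, adjusted p = 0.772). Its share of the complex V sum was 26.4% ± 0.330 in CKO and 23.4% ± 0.422 in FLOX, with no overlap; a share can differ because the other members do. The lower count of complex V was 3 without CKO 6, without CKO 8 and without FLOX 3 and 6 (15.4%, 15.8% and 25.8% of all tested genes).

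The 3 genes for subunit c of the ATP synthase encode the same mature protein with different import sequences. Atp5g3 had 216, 181, 202 and 191 CPM in CKO and 260.3, 227, 262 and 214 CPM in FLOX (−0.29, SE 0.08, adjusted p = 0.011 by edgeR); CKO 2 lay above FLOX 7, and the call was lost without CKO 6 and without FLOX 3 and 6. Atp5g2 had 120.2, 103, 113 and 103 CPM in CKO and 128, 108, 129 and 111 CPM in FLOX (−0.12, SE 0.08, adjusted p = 0.243). Atp5g1 had 68.9, 65.5, 67.5 and 57.9 CPM in CKO and 65.9, 56.8, 70.2 and 53.2 CPM in FLOX (0.08, SE 0.09, adjusted p = 0.52). Atp5g1 and Atp5g2 overlapped between the groups, and the order per kilobase was Atp5g3, Atp5g2, Atp5g1 in every library. The make-up differed in small degree: per kilobase, Atp5g3 held 51.6% ± 1.11 of the 3 in CKO and 55.9% ± 0.531 in FLOX, and Atp5g1 20.3% ± 1.10 in CKO and 17.1% ± 0.549 in FLOX (SD, n = 4 each), with no overlap for either. Of 3 tested ATP synthase genes with other names, 2010107E04Rik was lower (−0.29) and 0 were higher, against 21.6% and 23.8% of all tested genes. These 3 include Atpif1, an inhibitor of the synthase rather than a subunit, which was not called.

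A member at 0 calls for care. Ndufs5, an accessory subunit of complex I, had 0 counts in all 8 libraries, which allows up to 3 counts in each. RefSeq lists a pseudogene of it, and pairs that aligned to several places were not assigned to genes. Whether this accounts for the value of 0 was not tested, and the value is not taken as a measure of its expression.

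Reads of overlapping genes are uncertain, since the strand setting of the counting is not given in the sources used here. The body of 24 members overlaps that of another counted gene, among them 7 of the 26 that were called: Atp5a1, Atp5j, Cox4i1, Cox6a2, Cox6c, Ndufb5 and Ndufs3. The neighbour of Atp5a1, Haus1, moved the other way (log2 fold change 0.60, adjusted p = 0.000821 by edgeR). The neighbours of the 5 members Atp5j, Cox4i1, Cox6c, Ndufb5 and Ndufs3 were not called, and Itgad, that of Cox6a2, was too low to test.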

How the data were processed

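Total RNA of 8 libraries was sequenced as paired-end reads, per the labels' protocols. Per the submitters' processing notes, HISAT2 2.0.5, HTSeq and the build mm10 were used; no annotation or strand setting is given. The authors deposited raw counts of read pairs for each gene symbol, and the 5 classes of unassigned pairs (0.819% to 18.0% of pairs each) were left out. Members, gene lists and named genes were chosen with earlier results of these data known. Named in full are the 3 called members of smallest p in each complex and among the Ndufaf genes with a mean of at least 5 CPM, all members called higher, complex II and the paralogue sets; other called members are given by name and fold change, and from each related list up to 4 called genes of smallest p; Ndufs1 and Atp5b were added after their values were seen, as were Ndufa3, Ndufa12, Uqcrfs1, Uqcrc1, Uqcrc2, Uqcrq, Cycs, Cyc1, Nrf1, Gabpa, Yy1 and the overlapping neighbours. Sequence motifs were chosen likewise. The B cell marker list is reported in part here.

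Counts were tested with edgeR 4.0.16 in R 4.3.3: filterByExpr (minimum count 10, total 15) kept 11519 genes, libraries were scaled by TMM, and the quasi-likelihood F test set CKO against FLOX (6 residual degrees of freedom before moderation), adjusted over all tested genes. The standard error is the log2 fold change divided by the square root of F. Sums and levels are CPM on TMM-scaled library sizes; levels per kilobase use 1 principal GENCODE M21 transcript a gene, whose length was at hand for 99.5% of tested genes. Members' sums were given no test. The biological coefficient of variation was 8.77%, and no pair of libraries within a group agreed within sampling noise (chi-square of 2.45 to 27.8 per degree of freedom). The test was checked on simulated counts. Limits from a count of 0 cover counting error only. Alternatives, 20 fits in all, were RLE and upper-quartile scaling, other filters, DESeq2 1.42.0, limma-voom (limma 3.58.1), libraries left out singly and FLOX pairs together, removal of the 20 most abundant genes, a replicate block, and length and GC offsets. A fold minimum was also set on the calls of the fit of all libraries, which is not a further fit.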

Additional observations from a re-analysis of the deposited data

Results flagged for a closer look

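In 2 of 64 groups of 4 values tested for an outlying library, 1 library stood apart from the other 3 by more than Dixon's 95% critical value; chance flags about 1 in 20 groups. For Sdha, CKO 2 (353 CPM) lay above the other CKO libraries (329 to 331 CPM), with a gap of 0.916 of the range, and it was still below every FLOX library (399 to 408 CPM). For Cox7a1, FLOX 3 (2.73 CPM) lay above the other FLOX libraries (1.97 to 2.06 CPM), with a gap of 0.881 of the range.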

How the results depend on the processing

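The count of lower members was 24 with all libraries, 13 without FLOX 3 and 6, 66 without FLOX 4 and 7, 11 with the replicate number as a block, 1 with a log2 fold change beyond 0.5, and 12 to 41 when single libraries were left out. The count of higher members was 2, against 13 without FLOX 3 and 6 and 8 with the length offset. The summed CPM of all members was 88.1% of FLOX, and 96.4% without FLOX 3 and 6. Only numbers 6 and 7 occur in both groups, and their deviations correlated by 0.139 and −0.072, so the block rests on 4 libraries that share no more than a number; Atp5j, Cox6c and Ndufa4 lost their calls under it. Without FLOX 3 and 6, 23 of 71 members below zero turned positive, and without FLOX 4 and 7, 8 of 14 above zero turned negative; 0 of these were called in the fit of all libraries. Among the sums and the members named in full, the complex I sum (100.8%), Atp5g2 (0.0010), Cox6a1 (0.076) and Cox7a2 (0.038) changed direction without FLOX 3 and 6. Without FLOX 4 and 7 Atp5g1 did (−0.071), and with the length offset Cox6a1 did (0.021). Of the other members given by name with a fold change, Ndufaf1 (0.022) changed direction without FLOX 3 and 6. Atp5b (−0.073) and Uqcrq (−0.096) did so without FLOX 4 and 7. The cause was not tested. RLE and upper-quartile scaling, both other filters, DESeq2, limma-voom, the GC offset and removal of the 20 most abundant genes gave 24 or 25 lower and 2 or 3 higher members. Depth limits Cox4i2, Cox6b2 and the forms at 0 or 1 count.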
